A study of Rattus norvegicus with 20 samples.

Results

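The 9 genes described here encode the rat immunoproteasome and the machinery that loads peptides onto major histocompatibility complex class I molecules. They were taken by symbol from a table of 19060 genes: Psmb8, Psmb9 and Psmb10 (catalytic subunits), Tap1 and Tap2 (the peptide transporter), Erap1 (a trimming peptidase), Tapbp (tapasin), B2m (beta-2-microglobulin) and Nlrc5 (a transcriptional regulator). All 9 were in the table and all 9 passed the filter on low counts, as 14794 genes did. The values come from polyA-selected RNA of whole lung from 20 rats in 4 groups of 5. CLP+VNS rats had caecal ligation and puncture, which lets bowel content leak into the peritoneum and served here to induce acute respiratory distress syndrome (ARDS), together with vagus nerve stimulation (VNS) on the right side at the neck. CLP rats had the same operation without stimulation. Sham+VNS rats had stimulation and a sham operation, in which the abdomen was opened and the caecum handled but not injured. Sham rats had the sham operation alone. Strain, sex, age, the settings of the stimulator and the time from operation to tissue collection are not stated in the labels, and neither is a genetic change in any group.

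Cells cut their own proteins in the proteasome and show the fragments on class I molecules, where CD8 T cells inspect them. Under interferon gamma the constitutive catalytic subunits Psmb5, Psmb6 and Psmb7 are replaced in newly built particles by Psmb8, Psmb9 and Psmb10, which changes the cuts that are made. Tap1 and Tap2 together carry the fragments into the endoplasmic reticulum, Erap1 trims their ends, and tapasin holds an empty class I molecule, a heavy chain paired with beta-2-microglobulin, at the transporter until a peptide fits. Nlrc5 acts at the promoters of class I genes and of several of these partners. In lung these genes are known from the response to viruses, in alveolar epithelium, endothelium and leukocytes.

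The libraries were of similar depth, with 13729654 to 14275406 estimated counts in CLP+VNS, 13806220 to 14327215 in CLP, 13869123 to 14453188 in Sham+VNS and 13785062 to 14186121 in Sham. No library was a near copy of another within its group. Of the 14794 genes tested, 5955 (40.3%) differed between CLP and Sham rats at an adjusted p below 0.05 in edgeR's quasi-likelihood test, 49.1% of them higher in CLP, or 38.4% when libraries were scaled to their total count alone. The lung epithelial list was high in every group and in accord with the tissue label: its 10 genes, such as surfactant protein genes, summed to 35233 to 41573 CPM (counts relative to library size) in CLP+VNS, 35939 to 40576 CPM in CLP, 33487 to 42247 CPM in Sham+VNS and 24069 to 41109 CPM in Sham. Counts of a bulk sample cannot tell fewer cells of a type apart from less RNA per cell, and this holds for every gene below.

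CLP lungs held less RNA of all 3 immunoproteasome subunits, of tapasin and of Erap1 than Sham lungs, while no change passed the test for the peptide transporter, beta-2-microglobulin or Nlrc5. Thus 5 of the 9 genes fell and none rose, where 20.5% of all tested genes fell and 40.3% changed in either direction. The call of Psmb10 was close to the threshold (adjusted p = 0.0402) and was not stable, as given below. The log2 fold changes of the 9 ran from -0.63 to 0.24 with a median of -0.24, and the median of all tested genes was -0.01. Adjusted p-values here and below are Benjamini-Hochberg values over all 14794 genes from edgeR's quasi-likelihood test, and CPM values are scaled between libraries by TMM.

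**Figure D1:**
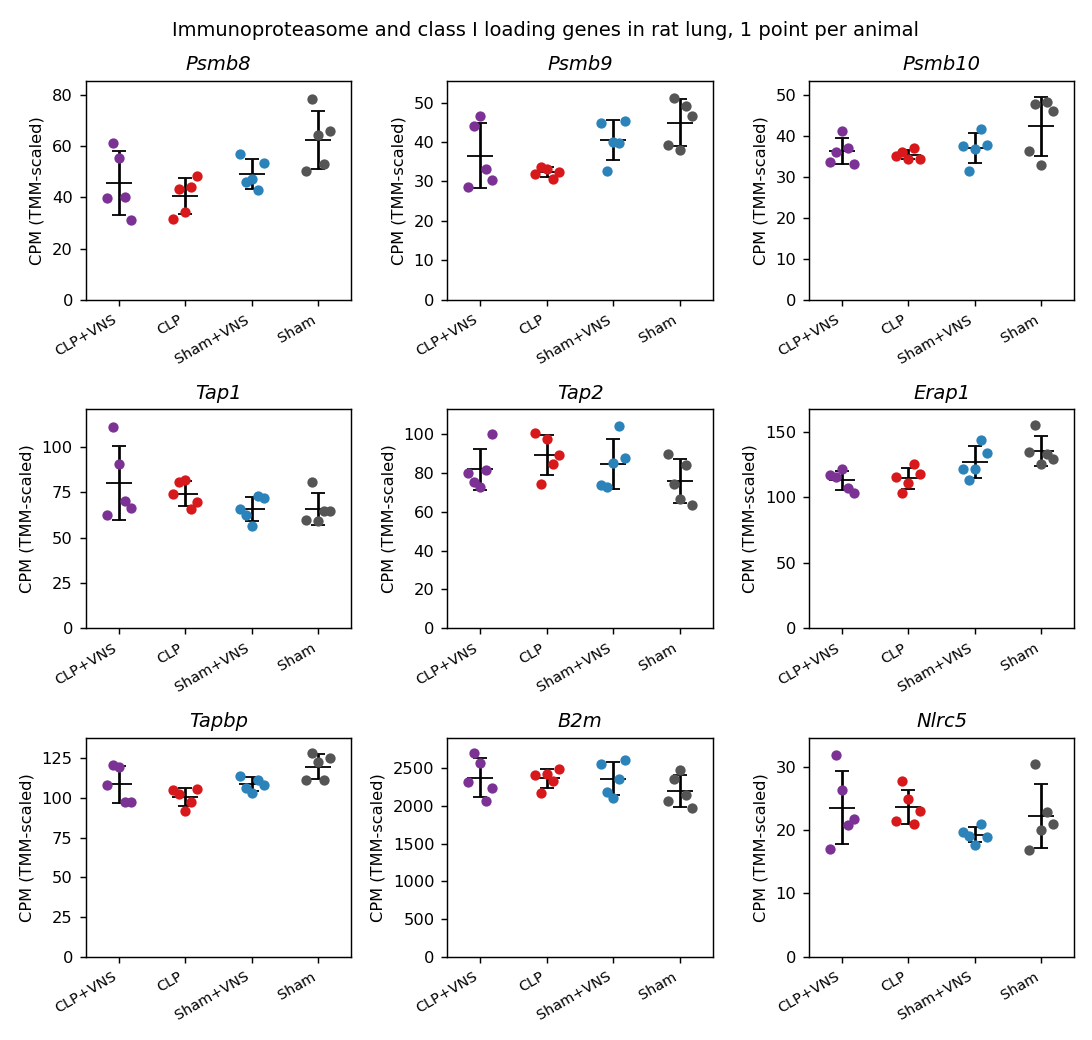
Level of each of the 9 genes in every library, in CPM after TMM scaling (vertical axes start at 0), for CLP+VNS, CLP, Sham+VNS and Sham rats, 1 point per animal; the long bar is the mean and the whiskers are 1 SD. The 5 CLP points lie below the 5 Sham points for Psmb8, Psmb9, Tapbp and Erap1, and for the other 5 genes the groups overlap.

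Psmb8, which takes the place of Psmb5 and carries the chymotrypsin-like site, showed the largest fall of the 9. It had 31.7, 43.5, 34.4, 44.0 and 48.5 CPM in CLP lungs, against 50.5, 78.3, 64.4, 53.1 and 65.9 CPM in Sham lungs. Every CLP library was below every Sham library, although the highest CLP value and the lowest Sham value were close. The log2 fold change was -0.63 ± 0.17 (SE, adjusted p = 0.00545). Psmb9, which replaces Psmb6, had 32.0, 33.7, 33.2, 30.6 and 32.3 CPM in CLP lungs, against 39.2, 51.2, 38.0, 49.2 and 46.7 CPM in Sham lungs. The CLP animals were nearly alike and all lay under the Sham animals, which were spread more widely, with an SD of 1.2 CPM in CLP and 5.94 CPM in Sham (n = 5 each). The log2 fold change was -0.47 ± 0.13 (adjusted p = 0.00571). Psmb10, which replaces Psmb7, had 35.0, 36.1, 34.3, 36.9 and 34.3 CPM in CLP lungs, against 36.3, 47.8, 32.8, 48.3 and 45.9 CPM in Sham lungs. Here the groups overlapped: 3 Sham animals were high, and the other 2 were at the level of the CLP animals. Its log2 fold change of -0.26 ± 0.10 passed at an adjusted p of 0.0402, and this call was not stable. It was lost when only the CLP and Sham libraries were fitted (adjusted p = 0.0768) and when any 1 of the 5 CLP libraries (0.0505 to 0.0780) or Sham replicate 2 (0.111), 4 (0.122) or 5 (0.0978) was left out.

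The 3 constitutive subunits gave no call in the same comparison. Psmb5 averaged 57.1 ± 2.94 CPM in CLP and 58.0 ± 2.19 CPM in Sham lungs (SD, n = 5 each). Psmb6 averaged 49.2 ± 4.12 CPM in CLP and 52.5 ± 2.48 CPM in Sham lungs. Psmb7 averaged 76.3 ± 2.36 CPM in CLP and 81.0 ± 5.02 CPM in Sham lungs. Their log2 fold changes were -0.02, -0.10 and -0.09, with adjusted p-values of 0.748, 0.238 and 0.122. With libraries scaled to total count alone, or without Sham replicate 3, 1 of these 3 was called lower.

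The share of inducible over constitutive subunit was set out as a ratio of TPM (a level scaled for transcript length and library size) within each library, a measure that does not depend on how libraries are scaled. The ratio of Psmb9 to Psmb6 was 0.530, 0.479, 0.574, 0.450 and 0.525 in CLP lungs, against 0.582, 0.729, 0.586, 0.679 and 0.716 in Sham lungs. The 2 groups did not overlap, but the gap between the highest CLP and the lowest Sham animal was narrow. The mean log2 ratio differed by -0.36, with p = 0.00794 in an exact two-sided permutation test, the smallest p that 5 against 5 allows. Over the 12 ratio tests this gave an adjusted p of 0.0952. A single ratio at the smallest possible p gives that same value over 12 tests, so 1 fully separated ratio could not pass by itself. The ratio of Psmb8 to Psmb5 averaged 0.495 ± 0.085 in CLP and 0.754 ± 0.146 in Sham lungs (SD). The groups overlapped by 1 pair of values, with a highest CLP ratio of 0.608 and a lowest Sham ratio of 0.601. The log2 difference of -0.60 had an exact permutation p of 0.0159 and an adjusted p of 0.0952. The ratio of Psmb10 to Psmb7 averaged 0.446 ± 0.028 in CLP and 0.500 ± 0.075 in Sham lungs, a log2 difference of -0.16 (exact permutation p = 0.167, adjusted p = 0.333). None of the 12 ratio tests passed after adjustment, and at 5 against 5 this does not show that the ratios were alike.

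**Figure D2:**
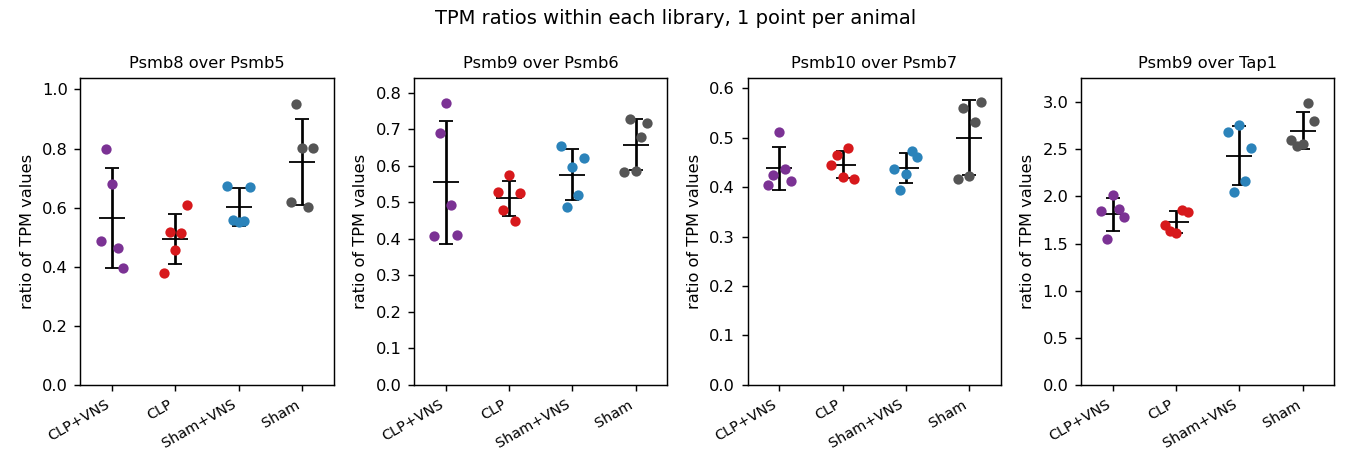
Ratios of TPM values within each library for Psmb8 over Psmb5, Psmb9 over Psmb6, Psmb10 over Psmb7 and Psmb9 over Tap1, in CLP+VNS, CLP, Sham+VNS and Sham rats, 1 point per animal with mean and 1 SD. All 3 inducible over constitutive ratios have their highest mean in Sham lungs, at 0.754, 0.658 and 0.500, and Psmb9 over Tap1 is at most 1.86 in CLP against at least 2.53 in Sham.

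Tap1 and Tap2 form the transporter only as a pair. Tap1 had 73.9, 80.6, 81.7, 65.7 and 69.4 CPM in CLP lungs, against 59.6, 80.5, 59.2, 64.8 and 64.9 CPM in Sham lungs. Only Sham replicate 2 reached the level of the upper CLP animals, and 4 of 5 Sham values were below all 5 CLP values. The log2 fold change was 0.17 with a 95% interval from -0.10 to 0.45 (adjusted p = 0.318). Tap2 had 100.4, 74.4, 97.5, 84.6 and 89.0 CPM in CLP lungs, against 89.8, 74.3, 66.7, 84.2 and 63.2 CPM in Sham lungs. Values of the groups were interleaved in the upper part of the Sham range, and the log2 fold change was 0.24 with an interval from -0.01 to 0.48 (adjusted p = 0.114).

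Tap1 and Psmb9 are read in opposite directions from neighbouring starts on chromosome 20, with 456 bases between the 2 starts in the RefSeq annotation of assembly GRCr8. The ratio of Psmb9 to Tap1 in TPM was 1.70, 1.64, 1.61, 1.86 and 1.83 in CLP lungs, against 2.60, 2.53, 2.56, 3.00 and 2.80 in Sham lungs. In the stimulated animals it was 1.84, 1.54, 2.02, 1.86 and 1.78 in CLP+VNS lungs, against 2.68, 2.04, 2.76, 2.17 and 2.52 in Sham+VNS lungs. Every CLP and CLP+VNS animal was thus below every Sham and Sham+VNS animal. This ratio was chosen after its values had been seen and is given without a test.

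The sequences before the starts of these genes are shown because the genes are known as interferon targets and did not all give the same call. RefSeq windows (GRCr8) from 250 bases before to 50 bases after the start were matched by gene identifier for 7 of the 9 members. Printed below, on the strand of the gene and from 5′ to 3′, are 150 bases before and the first 10 bases after the start of 6 of them. Capitals mark matches on either strand to GAAA, any 2 bases, GAAA, the core that interferon regulatory factors recognise, and to GGG, any 2 bases, TTTCC, an NF-kappaB type site. These will be called the GAAA pair and the NF-kappaB letters.
Tap1 (chr20:4668534-4668693, minus strand): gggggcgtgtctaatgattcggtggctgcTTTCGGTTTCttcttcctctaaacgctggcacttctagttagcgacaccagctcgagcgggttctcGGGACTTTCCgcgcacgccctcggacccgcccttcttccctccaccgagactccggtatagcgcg
Psmb9 (chr20:4668850-4669009, plus strand): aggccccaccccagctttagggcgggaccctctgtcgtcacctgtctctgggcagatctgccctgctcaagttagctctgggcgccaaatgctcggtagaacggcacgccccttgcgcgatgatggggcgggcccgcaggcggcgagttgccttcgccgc
Psmb8 (chr20:4657022-4657181, minus strand): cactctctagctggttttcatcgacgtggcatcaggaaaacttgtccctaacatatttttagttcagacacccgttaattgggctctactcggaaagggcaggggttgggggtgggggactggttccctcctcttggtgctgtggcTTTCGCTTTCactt
Psmb10 (chr19:50743283-50743442, minus strand): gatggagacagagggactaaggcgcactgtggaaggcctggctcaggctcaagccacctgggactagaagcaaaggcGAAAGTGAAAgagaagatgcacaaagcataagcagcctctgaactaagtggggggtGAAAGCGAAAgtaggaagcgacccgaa
Tapbp (chr20:4967868-4968027, minus strand): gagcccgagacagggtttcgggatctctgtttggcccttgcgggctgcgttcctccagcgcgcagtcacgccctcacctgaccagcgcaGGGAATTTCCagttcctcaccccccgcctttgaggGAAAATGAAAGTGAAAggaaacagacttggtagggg
B2m (chr3:129549180-129549339, plus strand): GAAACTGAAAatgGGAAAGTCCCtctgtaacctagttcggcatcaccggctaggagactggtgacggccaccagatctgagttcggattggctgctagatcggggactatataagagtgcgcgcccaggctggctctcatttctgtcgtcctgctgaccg

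The GAAA pair was found in 6 of the 7 windows, those of Tap1, Tap2, Tapbp, Psmb8, Psmb10 and B2m, against 3.92% of 33469 windows of the same length over all genes and 0 of the 3 windows of Psmb5, Psmb6 and Psmb7. Psmb9 was the 1 of the 7 without it in its own window. The copy of Tap1 lies between the starts of Tap1 and Psmb9, outside the Psmb9 window, which reaches 250 bases before that start, so this absence depends on where the window ends. Tapbp held 2 copies that overlap, at -26 to -17 and -20 to -11, and Psmb10 held 2 separate copies, at -73 to -64 and -17 to -8, counted from the start. The NF-kappaB letters were found in 3 of the 7, in Tap1 (-55 to -46), Tapbp (-61 to -52) and B2m (-137 to -128), against 1.53% of all windows. The gamma-activated site TTCNNNGAA matched only Psmb8 among the 7, against 8.87% of all windows. CCAAT was in 3 of the 7 and in 37.5% of all windows, and TGACGTCA in none of the 7 and in 1.83% of all windows. Genes with the GAAA pair were among those that fell (Psmb8, Tapbp and, by a call that was not stable, Psmb10). Others with it gave no call (Tap1, Tap2, B2m). A match describes letters in these windows and does not show that a factor binds there.

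Erap1, the endoplasmic reticulum peptidase that shortens peptides to the length class I molecules hold, had 115.4, 103.7, 110.8, 125.2 and 117.9 CPM in CLP lungs, against 134.3, 155.0, 125.6, 133.0 and 128.9 CPM in Sham lungs. All CLP values lay below all Sham values, by a margin of less than 1 CPM between the nearest pair. The log2 fold change was -0.24 ± 0.07 (adjusted p = 0.0102). Tapbp, whose product tapasin edits the peptide cargo, had 105.2, 102.6, 92.0, 97.2 and 105.3 CPM in CLP lungs, against 111.1, 128.1, 122.6, 111.3 and 125.3 CPM in Sham lungs. The groups did not overlap, and the log2 fold change was -0.25 ± 0.06 (adjusted p = 0.00418), the smallest adjusted p of the 9 on a change of modest size. In all, 4 of the 9 members had CLP values entirely below the Sham values, against 12.7% of all tested genes.

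B2m, the light chain shared by all class I molecules, was the most abundant of the 9 and ranked 53 of 19060 genes by mean TPM in Sham lungs. It had 2408, 2175, 2419, 2336 and 2498 CPM in CLP lungs, against 2071, 2360, 2478, 2143 and 1968 CPM in Sham lungs. The groups overlapped, and the log2 fold change was 0.10 with a 95% interval from -0.07 to 0.28 (adjusted p = 0.351). Nlrc5 was the least abundant, at 21.5, 27.7, 24.8, 21.0 and 23.1 CPM in CLP lungs, against 16.9, 30.4, 20.0, 22.9 and 21.0 CPM in Sham lungs. The Sham animals covered the whole range of the CLP animals, and the log2 fold change was 0.09 with an interval from -0.23 to 0.40 (adjusted p = 0.680).

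Per length, B2m stood far above the rest, with 2133 ± 116 TPM in CLP and 2113 ± 170 TPM in Sham lungs (SD, n = 5 each). The next 4 genes were Tapbp (79.4 TPM), Psmb9 (73.8 TPM), Psmb8 (71.1 TPM) and Psmb10 (70.2 TPM) in CLP lungs. In Sham lungs the same 4 stood in the order Psmb8 (117 TPM), Psmb9 (109 TPM), Tapbp (99.5 TPM) and Psmb10 (89.4 TPM). Neighbours among these 4 had overlapping ranges in both groups. Below them came Tap2 (57.7 TPM), Erap1 (52.4 TPM) and Tap1 (43.0 TPM) in CLP lungs, and Erap1 (66.8 TPM), Tap2 (52.2 TPM) and Tap1 (40.6 TPM) in Sham lungs. Ranges of neighbours among these 3 overlapped in both groups too. Psmb10 (66.9 to 72.5 TPM) lay just above Tap2 (48.2 to 66.6 TPM) in CLP lungs, while in Sham lungs it overlapped Erap1, the gene next below it. Nlrc5 was last, at 4.28 TPM in CLP and 4.21 TPM in Sham lungs, and its range lay clear of every other member in all 4 groups. The transcript table split 4 of the 9 genes into more than 1 transcript: Tapbp and Psmb9 into 2 each, Erap1 into 6 and Nlrc5 into 9. The leading transcript of Tapbp held 65.0% ± 2.19 of its TPM in CLP and 63.5% ± 2.77 in Sham lungs, and that of Erap1 held 83.1% ± 2.29 in CLP and 85.0% ± 2.09 in Sham lungs. For both genes the shares overlapped between the groups. These splits are estimates by the authors' program and were not tested.

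In stimulated animals no member passed the test between the operations. Between CLP+VNS and Sham+VNS lungs 0 of the 9 genes passed the test, where 4044 of 14794 tested genes (27.3%) did. At an unadjusted p below 0.05 there were 2, Erap1 and Tap1 (37.5% of all tested genes), and DESeq2 also called 0 of the 9. The log2 fold changes ran from -0.17 for Erap1 to 0.29 for Nlrc5. Psmb8 had 39.9, 61.3, 55.6, 40.3 and 31.2 CPM in CLP+VNS lungs, against 57.2, 46.1, 47.1, 42.8 and 53.3 CPM in Sham+VNS lungs. The CLP+VNS animals fell on both sides of the Sham+VNS animals, and the log2 fold change was -0.11 with a 95% interval from -0.46 to 0.24. Psmb9 had 28.7, 44.0, 46.6, 33.1 and 30.3 CPM in CLP+VNS lungs, against 44.7, 32.6, 40.0, 39.8 and 45.4 CPM in Sham+VNS lungs. Again 2 stimulated CLP animals, replicates 3 and 5, were as high as the upper Sham+VNS animals and the other 3 were low. Its log2 fold change was -0.15, with an interval from -0.41 to 0.12. Tapbp averaged 109 ± 11.6 CPM in CLP+VNS and 109 ± 4.17 CPM in Sham+VNS lungs (SD, n = 5 each), and Psmb10 averaged 36.1 ± 3.15 CPM in CLP+VNS and 37.0 ± 3.67 CPM in Sham+VNS lungs.

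Erap1 had 117.0, 115.3, 121.8, 107.1 and 103.2 CPM in CLP+VNS lungs, against 121.3, 113.6, 121.9, 144.0 and 133.6 CPM in Sham+VNS lungs. Its log2 fold change of -0.17 ± 0.07 had an adjusted p of 0.0817, 0.0318 with libraries scaled to total count alone and 0.0378 without Sham+VNS replicate 2. Tap1 had 62.3, 111.1, 90.7, 70.1 and 66.4 CPM in CLP+VNS lungs, against 66.0, 62.6, 56.6, 72.8 and 71.8 CPM in Sham+VNS lungs. Replicates 3 and 5 of CLP+VNS were high and the other 3 lay within the Sham+VNS range, for a log2 fold change of 0.28 ± 0.13 (adjusted p = 0.129). Nlrc5 was highest in the same 2 animals, with 17.0, 31.8, 26.3, 20.8 and 21.8 CPM in CLP+VNS lungs, against 19.8, 19.1, 17.6, 21.0 and 18.9 CPM in Sham+VNS lungs (log2 fold change 0.29 ± 0.15, adjusted p = 0.169). B2m averaged 2378 ± 255 CPM in CLP+VNS and 2365 ± 222 CPM in Sham+VNS lungs, and Tap2 averaged 81.7 ± 10.7 CPM in CLP+VNS and 84.6 ± 12.8 CPM in Sham+VNS lungs.

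**Figure D3:**
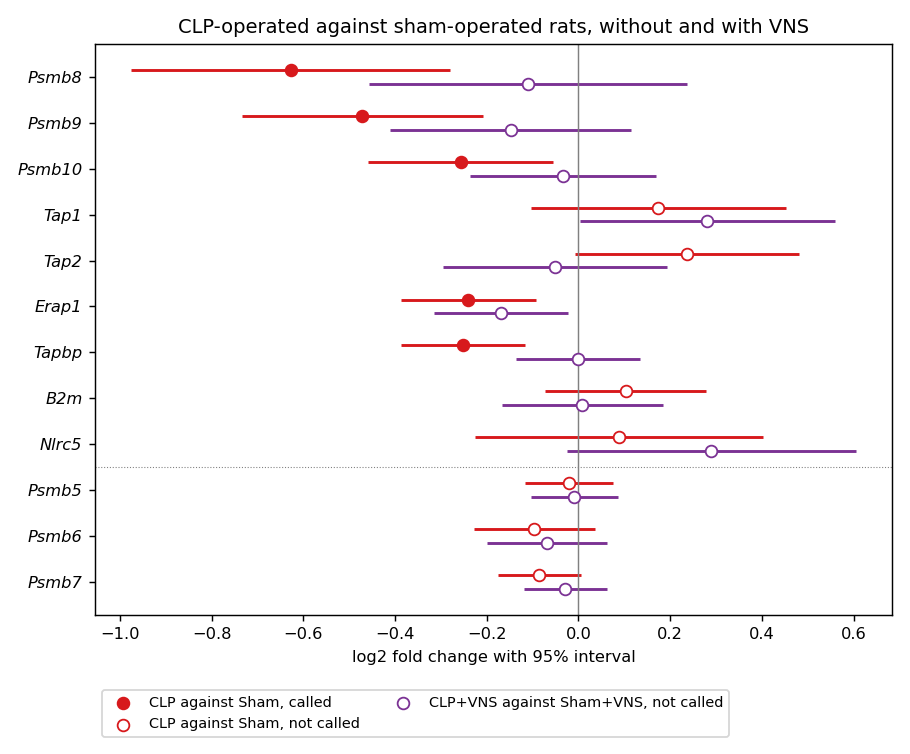
Log2 fold changes with 95% intervals for CLP against Sham (red) and CLP+VNS against Sham+VNS (purple), for the 9 genes and, under the dotted line, the constitutive subunits Psmb5, Psmb6 and Psmb7; filled points passed an adjusted p of 0.05. The 5 filled points are Psmb8, Psmb9, Psmb10, Erap1 and Tapbp in CLP against Sham, and no interval of the stimulated animals is filled.

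A call in unstimulated animals and none in stimulated animals is not by itself a difference between them, so that difference was tested as an interaction. None of the 9 genes passed, and neither did any of the 14794 tested genes (0%, up to 3 genes when single libraries were left out, with 1217 genes or 8.23% at an unadjusted p below 0.05, and 6 genes by DESeq2). Tapbp had an interaction of 0.25 ± 0.09 on the log2 scale (adjusted p = 0.517) and Psmb8 one of 0.52 ± 0.23 (adjusted p = 0.584). These 2 members had an unadjusted p below 0.05, at 0.0126 for Tapbp and 0.0398 for Psmb8.

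Stimulation itself moved none of the 9 genes past the test in either operation. Between CLP+VNS and CLP lungs 4 of 14794 genes were called (0.027%, all lower in CLP+VNS), none of them a member, and no member had an unadjusted p below 0.05, as 13% of all tested genes did. DESeq2 called 138 genes there, again with 0 members, and edgeR called 277 without CLP+VNS replicate 1, with 0 members. Member log2 fold changes in this comparison ran from -0.13 for Tap2 to 0.18 for Psmb8. Psmb8 averaged 45.7 ± 12.4 CPM in CLP+VNS and 40.4 ± 7.05 CPM in CLP lungs, and the 95% interval of its log2 fold change ran from -0.17 to 0.53. Between Sham+VNS and Sham lungs 0 genes were called (0%, with 1185 genes or 8.01% at an unadjusted p below 0.05 and 6 genes by DESeq2). The largest member value there was again that of Psmb8, which averaged 49.3 ± 5.81 CPM in Sham+VNS and 62.4 ± 11.2 CPM in Sham lungs, with an interval from -0.69 to 0.0041 on the log2 scale. Tapbp averaged 109 ± 4.17 CPM in Sham+VNS and 120 ± 7.96 CPM in Sham lungs, with an unadjusted p of 0.0437 and an adjusted p of 0.623. The 4 comparisons share groups, so their values are not independent of each other.

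**Figure D4:**
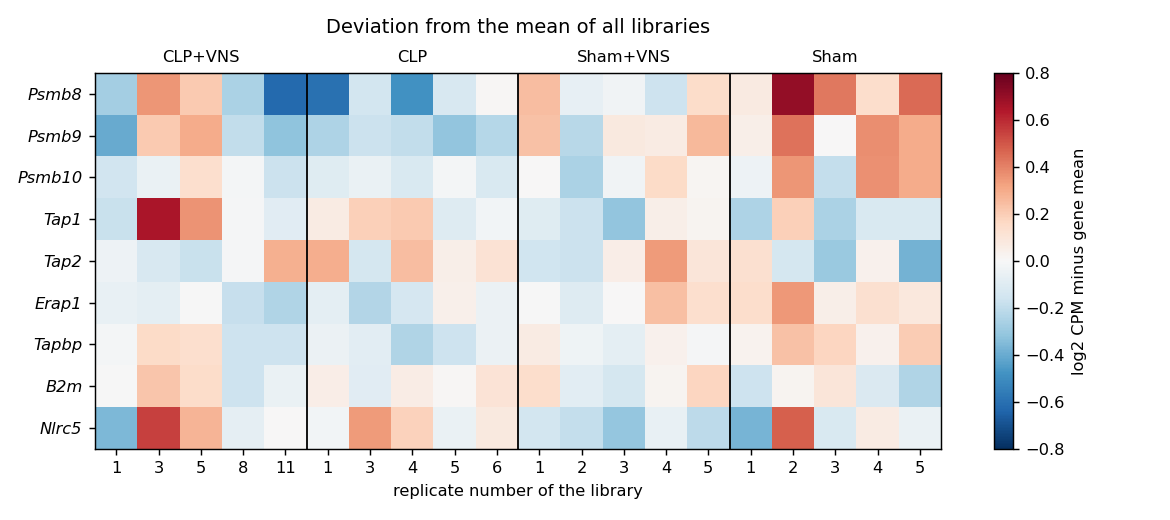
Deviation of each library's log2 CPM from the mean of all 20 libraries, for the 9 genes (rows) and the libraries of CLP+VNS, CLP, Sham+VNS and Sham rats (columns, numbered by replicate); red is above and blue below the gene's mean. CLP+VNS replicate 3 and Sham replicate 2 are red for Tap1, Nlrc5, Psmb8 and Psmb9 alike.

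Some animals stood high for several of the 9 genes. Sham replicate 2 had the highest value of its group for 6 of the 9 genes. CLP+VNS replicate 3 and Sham+VNS replicate 4 each had the highest of their group for 5 of the 9, and Sham+VNS replicate 4 also had the lowest for 1. Without Sham replicate 2, Psmb8, Psmb9, Tapbp and Erap1 were still called lower in CLP (adjusted p from 0.0137 to 0.0363), and Psmb10 was not called.

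Over the 20 libraries the profiles of the 9 genes did not form 1 block. Likeness was measured as the root mean square distance between log2 CPM profiles scaled to mean 0 and SD 1, and 14793 genes were ranked for each member. Tap1 and Nlrc5 were each other's nearest gene, at a distance of 0.519. After them Tap1 was nearest to Batf2, Igtp and Irf1, and Nlrc5 to Batf2, Ifit2 and Igtp, all known as interferon-induced genes. Psmb8 and Tapbp were also close, at 0.519, where Psmb8 was the nearest gene to Tapbp and Tapbp the second nearest to Psmb8. The nearest to Psmb8 was RT1-T24-3, at 0.480, and the third was RT1-CE1, both class I heavy chain genes. Psmb9 was nearest to Wnt5b, Sez6l and Lclat1, and its nearest members were Psmb8 (rank 20) and Psmb10 (rank 43). Psmb10 was nearest to Thoc5, Cox4i2 and Npnt, Erap1 to Spopl, Ndn and Bst2, and B2m to LOC100365062, Zdhhc24 and Ddb2. Tap2 was nearest to LOC120093125, Csnk2b and Mdc1, and its partner Tap1 ranked only 7868. In each group the libraries lowest for Psmb8 were highest for Tap2, both genes of chromosome 20. After CLP these were CLP replicates 1 (Psmb8 31.7, Tap2 100.4 CPM) and 4 (34.4, 97.5 CPM) and CLP+VNS replicate 11 (31.2, 99.7 CPM). After sham operation they were Sham replicates 1 (50.5, 89.8 CPM) and 4 (53.1, 84.2 CPM) and Sham+VNS replicate 4 (42.8, 104.1 CPM). Whether the animals carried different versions of this chromosome region was not tested. The distances include the differences between groups and describe these libraries, without a test.

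Genes that work beside the 9 were read from lists. Of 12 other genes of peptide loading and trimming, 6 rose and 2 fell in CLP against Sham, with a median log2 fold change of 0.14, where 19.8% of all tested genes rose and 20.5% fell. The 6 that rose were Npepps (0.32 ± 0.05), Canx (0.33 ± 0.07), Tpp2 (0.20 ± 0.06), Pdia3 (0.37 ± 0.11), Calr (0.40 ± 0.14) and Thop1 (0.21 ± 0.08). Calr, Canx and Pdia3 encode calreticulin, calnexin and ERp57, chaperones that fold many glycoproteins besides class I, and Npepps, Tpp2 and Thop1 encode cytosolic peptidases. The 2 that fell were Tapbpl (-0.44 ± 0.08, adjusted p = 0.000143), which encodes the tapasin-related peptide editor, and Psme1 (-0.27 ± 0.05, adjusted p = 0.00016), which encodes a subunit of the PA28 proteasome activator. Tapbpl had 37.2, 35.5, 35.9, 33.0 and 38.5 CPM in CLP lungs, against 40.6, 49.9, 46.3, 51.3 and 55.7 CPM in Sham lungs, without overlap. In CLP+VNS against Sham+VNS, 2 of the 12 rose, Npepps and Thop1, and none fell, where 27.3% of all tested genes changed.

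Of 22 class I heavy chain genes and related class I-like genes, 21 were tested in CLP against Sham, and 3 fell and 1 rose, with a median log2 fold change of -0.36. Of all tested genes 40.3% changed and 20.5% fell, so the list held no more calls than the table as a whole. RT1-CE1, a class I heavy chain gene, had 52.0, 163.9, 59.5, 162.9 and 138.7 CPM in CLP lungs, against 187.3, 215.0, 383.1, 252.9 and 425.2 CPM in Sham lungs. The groups did not overlap, and its log2 fold change was -1.34 ± 0.44 (adjusted p = 0.0218). RT1-M3-1 (-0.40 ± 0.14) and RT1-S3 (-0.36 ± 0.14) also fell, and the gene that rose was Procr (1.03 ± 0.23), the endothelial protein C receptor, which has the class I fold but no beta-2-microglobulin. Class I heavy chain genes are close copies of each other and vary between rat haplotypes, so that reads may have been divided among them in a way that moves single values. Leaving out 1 library at a time gave 1 to 5 calls in this list, with 1 call without CLP replicate 4 and 2 without CLP replicate 1 or Sham replicate 5. In CLP+VNS against Sham+VNS, Procr was higher, and RT1-N3 and Hfe were lower, 3 of 21 against 27.3% of all tested genes.

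Of 22 genes of the interferon gamma pathway and of class I transcription, 21 were tested. Ifng itself had 6 counts over all 20 libraries and was not tested. In CLP against Sham 10 of the 21 were called, a share near the 40.3% of all tested genes. The 7 that rose were the receptor chains Ifngr1 (0.32 ± 0.06) and Ifngr2 (0.51 ± 0.07), the kinase Jak2 (0.76 ± 0.10), the inhibitor Socs1 (0.59 ± 0.22), Nfkb1, Creb1 and Irf2. The 3 that fell were Rfx5 (-0.27 ± 0.07), a subunit of the complex that binds class I and class II promoters, Nfyc (-0.18 ± 0.06) and Ciita (-0.29 ± 0.10), the class II regulator. Irf1, which binds the GAAA pair, averaged 97.0 ± 4.56 CPM in CLP and 91.5 ± 3.23 CPM in Sham lungs (0.09 ± 0.06, adjusted p = 0.299). In CLP+VNS against Sham+VNS, 5 of the 21 rose and 2 fell, again a share near that of all tested genes (27.3%). The 2 that fell were Ciita and Rfx5, and the 5 that rose were Socs1 (1.17 ± 0.23), Ifngr2, Jak2, Ifngr1 and Rela.

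Marker genes of cell types were read from lists in the same way. Of all tested genes 20.5% were lower and 19.8% higher in CLP than in Sham, and 27.3% changed in CLP+VNS against Sham+VNS. Of 14 T cell markers, 12 were lower in CLP than in Sham and 1, Il7r, was higher, and their summed level was 97.9 to 109 CPM in CLP against 148 to 217 CPM in Sham lungs. In the stimulated animals 10 of the 14 were lower, with a sum of 95.9 to 126 CPM in CLP+VNS against 115 to 165 CPM in Sham+VNS lungs. Of 8 B cell markers 4 were lower in CLP (sum 46.6 to 86.7 CPM in CLP, 66.1 to 136 CPM in Sham), and of 8 tested NK and cytotoxic markers 1 was lower (32.8 to 69.2 CPM in CLP, 44.4 to 78.0 CPM in Sham). Klrb1 of the NK list was at 0 in all CLP and Sham+VNS libraries. All 11 tested neutrophil markers were higher in CLP, with a sum of 4332 to 6047 CPM in CLP against 370 to 1003 CPM in Sham lungs, and 7 of 10 monocyte and macrophage markers were higher (1074 to 1332 CPM in CLP, 631 to 784 CPM in Sham). In the stimulated animals 9 of the 11 neutrophil markers were higher (2075 to 5682 CPM in CLP+VNS, 311 to 768 CPM in Sham+VNS), and Ltf, the marker not tested, was at 0 in both of those groups. Of 10 endothelial markers 5 were lower and 2 higher in CLP (3383 to 3954 CPM in CLP, 3597 to 4364 CPM in Sham). Of 10 lung epithelial markers 2 were lower and 1 higher, and of 8 dendritic cell markers 2 were higher and 1 lower. In CLP against Sham the NK, lung epithelial and dendritic cell lists held no larger share of calls than all tested genes (40.3%). The part of these marker changes in the values of the 9 genes was not tested.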

How the data were processed

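RNA of 20 rat lungs, 5 in each of 4 groups taken from the sample labels, was polyA-selected and sequenced as strand-specific paired-end libraries, per the labels' protocols. The authors deposited FPKM values, TPM values, read counts and a normalized signal per gene and per transcript, per the file headers. The values the authors deposited as read counts are estimated counts (expected counts) per gene, in the authors' table, 91.5% of them whole numbers, and were rounded here. The signal and FPKM columns deposited by the authors were not used in tests, and group averages were not used. Reads were aligned to mRatBN7.2, per the submitters' processing notes. With the aligner, counting program and use of strand not given in the sources used here, values of close copies and overlapping genes are uncertain.

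Counts were tested with edgeR 4.0.16 (R 4.3.3): filterByExpr with a minimum count of 10, TMM factors, a robust quasi-likelihood fit of 4 group means with 16 residual degrees of freedom (biological coefficient of variation 0.161), and Benjamini-Hochberg adjustment over 14794 genes with calls below 0.05. The fit was also run on simulated counts with the same spread for all genes, unlike these data, and no result here rests on that run. Ratios of TPM were compared by exact permutation (SciPy 1.17.1). DESeq2 1.42.0, other scalings, no filter, only the groups compared, a replicate block and each library left out were tried as alternatives. Of 22 pairs of libraries with equal replicate numbers 4 correlated above 0.1, as did 24 of 128 pairs with different numbers. This check pools all groups, so it showed no pairing by number but cannot exclude one between single groups. The labels state 5 rats a group, so p-values measure the spread between animals as far as each library is 1 animal.

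The 9 members and all lists were chosen with earlier results of these data known. All 9 members are named in each comparison. Of the other lists, up to 8 called genes by adjusted p and genes whose groups do not overlap may be named, and for likeness the 3 nearest genes. Irf1, Ifng and Il7r, and in CLP against Sham also Ciita and Socs1, were named after their values were seen, and so were markers at 0. RefSeq promoter windows and 18800 of 19060 gene identifiers were matched in GRCr8, used for names, chromosomes and these windows. A gene of the interferon pathway list is not reported here.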

Additional observations from a re-analysis of the deposited data

Results flagged for a closer look

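Tap1 in Sham replicate 2, at 80.5 CPM, stood apart from the other 4 Sham animals, which had 59.2 to 64.9 CPM. It was the 1 case among 48 sets of 5 libraries examined, and chance alone sets a library apart in about 5% of such sets. The same library was highest in its group for 6 of the 9 genes. Without it, the log2 fold change of Tap1 in CLP against Sham was the highest found when single libraries were left out, at 0.26, and it was still not called.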

How the results depend on the processing

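Psmb8, Psmb9, Tapbp and Erap1 kept their direction and their call in CLP against Sham under all 26 alternatives, with log2 fold changes of -0.70 to -0.53, -0.52 to -0.42, -0.30 to -0.22 and -0.29 to -0.19, and 4 or 5 members were called each time. Tap1, Tap2, B2m and Nlrc5 were called under none of them. The count of CLP+VNS against CLP was 4 genes, and 0 with total count scaling, 0 with the replicate block, 0 with only the groups compared, 138 by DESeq2, and 0 to 277 with single libraries left out. That of Sham+VNS against Sham was 0, and 6 by DESeq2, 1 with only the groups compared, and 0 to 2 with single libraries left out. The interaction had 0 calls, 6 by DESeq2 and 0 to 3 with single libraries left out. In CLP+VNS against Sham+VNS 1 member (Erap1) was called with total count scaling and 0 to 1 with single libraries left out.

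Over all groups pooled, libraries of equal replicate number showed no pairing (correlations from -0.147 to 0.229, median 0.014). A pairing between single groups is not excluded by this. With the number as a replicate block, CLP+VNS against Sham+VNS had 2109 calls in place of 4044, Psmb10 in CLP against Sham had an adjusted p of 0.116, and numbers found in 1 group only add nothing to that fit. In the same stimulated comparison the block turned the sign of Tapbp (0.0866), Psmb8 (0.0396) and Psmb10 (0.0269), and gave 1 call among class I heavy chain and related genes and 3 among interferon pathway genes.

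Other turns of sign were all in values near 0 that were never called. In CLP+VNS against Sham+VNS, Tapbp (-0.0013) was 0.000310 with RLE size factors, 0.000287 by DESeq2, 0.000336 with only the groups compared, and -0.0440 to 0.0355 with single libraries left out. B2m was -0.0257 with total count scaling and -0.0428 to 0.0536 with single libraries left out, Tap2 -0.134 to 0.0334 and Psmb10 -0.0873 to 0.0112. With single animals left out, the log2 ratio of Psmb10 to Psmb7 differed by -0.0609 to 0.0246 between CLP+VNS and Sham+VNS and by -0.0850 to 0.000466 between CLP+VNS and CLP, and that of Psmb9 to Psmb6 by -0.0626 to 0.168 between CLP+VNS and CLP. In that setting, the stimulated comparison gave 1 call among class I heavy chain and related genes without Sham+VNS replicate 4 or CLP+VNS replicate 3, and 1 among other loading genes without Sham+VNS replicate 1. The cause of these changes was not tested.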
